A study of Mus musculus with 8 samples.

Results

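The immediate early and AP-1 genes Fos, Fosb, Fosl1, Fosl2, Jun, Junb, Jund, Egr1, Atf3 and Ier3 were examined in mRNA-seq libraries. The study describes the cells as liver endothelial cells (ECs), with and without deletion of LRP1. The members were 10 rows of the deposited table of 22520 protein-coding genes, chosen by gene symbol. Of these, 9 passed the filter on low values and Fosb did not. The study compared 4 libraries of LRP1 eKO mice (LRP1 f/f; Cdh5-CreER+/-) with 4 libraries of WT littermates (LRP1 f/f; Cdh5-CreER-/-), all labelled C57BL/6 and postnatal day 14, and the labels call the cells liver microvesicular cells. Every mouse carried the floxed Lrp1 alleles, and the CreER transgene, driven by the Cdh5 promoter of ECs, was present in LRP1 eKO mice and absent from WT mice, so that effects of CreER and of Lrp1 deletion cannot be told apart. The methods describe selection of ECs with PECAM-1 antibody beads. How and when Cre was induced for these mice, and whether a library came from 1 mouse, are not given in the sources used here. The p-values below therefore measure the spread between libraries, which may be technical.

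Immediate early genes are transcribed within minutes of a stimulus, before new protein is made, and their mRNAs decay quickly. Growth factors, cytokines, stretch and stress reach them through MAP kinases, serum response factor (SRF) and CREB. Fos and Jun proteins join through leucine zippers to form the transcription factor AP-1, which binds DNA at AP-1 sites and at the related cAMP response element (CRE). Jun proteins can pair with each other, while Fos proteins need a partner. In endothelium, immediate early genes respond to flow, inflammation and wounding, and in liver they respond to injury and to the isolation of cells.

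Because Fos, Jun and Atf3 were the members with the largest differences, the bases directly before their RefSeq transcription starts are shown. RefSeq promoters on GRCm38.p6 matched 8 of the 10 members, all except Fosl1 and Egr1. Capitals mark the CRE core TGACG, the TATA box TATAAA and TGACATCA, a known variant AP-1 site of the Jun promoter that was added to the search after the sequence was seen. Each line gives 250 bases, 5′ to 3′ on the strand of the gene.
Fos, plus strand, chr12:85473640-85473889: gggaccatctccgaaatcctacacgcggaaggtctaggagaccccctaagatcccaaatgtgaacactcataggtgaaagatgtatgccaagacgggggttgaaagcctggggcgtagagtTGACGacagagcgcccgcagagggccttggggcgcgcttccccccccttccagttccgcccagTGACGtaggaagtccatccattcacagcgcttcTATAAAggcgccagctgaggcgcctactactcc
Jun, minus strand, chr4:95052223-95052472: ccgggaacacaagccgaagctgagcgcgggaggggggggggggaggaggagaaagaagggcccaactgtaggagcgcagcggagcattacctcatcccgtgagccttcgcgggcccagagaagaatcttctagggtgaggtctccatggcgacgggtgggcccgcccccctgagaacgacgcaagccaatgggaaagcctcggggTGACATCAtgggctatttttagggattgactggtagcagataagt
Atf3, minus strand, chr1:191183334-191183583: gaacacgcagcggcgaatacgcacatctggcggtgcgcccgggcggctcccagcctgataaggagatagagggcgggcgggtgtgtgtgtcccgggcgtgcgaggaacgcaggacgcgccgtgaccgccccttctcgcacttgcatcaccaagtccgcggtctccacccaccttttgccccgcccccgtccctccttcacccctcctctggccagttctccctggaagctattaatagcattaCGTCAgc

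Both strands of the 300 bases from 250 before to 50 after the start were searched. Positions are counted back from the start. In Fos, TGACG lay at -129 to -125 and at -66 to -62, and TATAAA at -33 to -28. In Jun, TGACATCA lay at -45 to -38, and in Atf3 the core lay on the opposite strand at -7 to -3, where it reads CGTCA. Of 32851 promoters of this length in the RefSeq table, 20.8% held TGACG, 13.6% held TATAAA and 3.62% held TGACATCA. The members with TGACG were Fos, Fosb, Junb and Atf3, and TATAAA was also found in Junb, directly after the start. The full CRE (TGACGTCA, in 1.79% of promoters), the AP-1 site TGAGTCA (5.20%) and the CArG box that SRF binds (1.63%) were found in none of the 8 member windows. Sites farther from the start were not searched, and Egr1 and Fosl1 had no window, so such sites may exist outside these windows. For Jund, the bases before the RefSeq start ended at chr8:70697738, upstream of the GENCODE gene start at 70698949. The GC box GGGCGG, held by 35.7% of promoters and left in lower case above, was found in Fos, Fosb, Fosl2, Jun, Atf3 and Ier3, with 5 matches in Atf3. These matches describe letters only, and no binding was measured.

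The values are quantile-normalized signals whose unit before normalization is not stated, so that signals were compared between libraries and not between genes. Lrp1, the targeted gene, had 6.74% of its WT mean signal in LRP1 eKO libraries. Of the libraries, WT replicate 4 lay farthest from the median of its group in 61.7% of tested genes and LRP1 eKO replicate 2 in 37.2%, so results are also given without these libraries. The defining endothelial genes Pecam1 and Cdh5 were above 0 in every library, but their signals were low. Their WT means lay not far above 1, the signal that the filter on low values asked for. The mean signal of Pecam1 was 2.09 ± 0.416 and 3.02 ± 0.911 in WT and LRP1 eKO (SD, n = 4 each; limma adjusted p = 0.11), and that of Cdh5 was 1.86 ± 0.430 and 3.70 ± 1.34. The summed signal of 10 pan-endothelial genes lay between 46.9 and 54.7 in WT and between 69.4 and 86.7 in LRP1 eKO libraries. That of 10 stellate cell and fibroblast genes, led by Col1a2 and Dcn, lay between 2001 and 2312 in WT and between 1757 and 2213 in LRP1 eKO libraries. Genes of both cell types were thus found in every library, and since signals were not compared between genes, the share of ECs in the preparations cannot be given. Liver ECs is used here as the study's name for the cells of these libraries, and which cells carried a transcript was not measured. In such bulk libraries, more cells of a type and more RNA per cell cannot be told apart.

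Atf3, Jun and Fos were higher in every LRP1 eKO library than in every WT library, and Atf3 was the member that passed the 2-fold threshold. In all, 5 of the 9 tested members (Atf3, Jun, Fos, Fosl1 and Ier3) rose at a limma adjusted p below 0.05. Of all 11391 genes tested, 19.0% rose at this threshold. The members were chosen with earlier results of these data known, so counts of members beside such shares are descriptive only. With the 2-fold threshold added, 1 of 9 members was called, against 1.66% of all genes tested in either direction and 0.869% that were higher. Calls in either direction without it numbered 5 of 9 members and 41.2% of all genes tested. No member fell at an adjusted p below 0.05 from limma, while 22.2% of all genes tested fell at this threshold. At an unadjusted limma p below 0.05, 0 members fell. The share of all genes there was not counted, but it is at least 22.2%, since an adjusted p is never below its unadjusted p. The median log2 fold change was 0.19 over the 9 tested members and -0.0095 over all genes tested. Fold changes are differences of mean log2(signal + 1), LRP1 eKO minus WT, on which changes of weakly expressed genes appear smaller than they are.

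**Figure D1:**
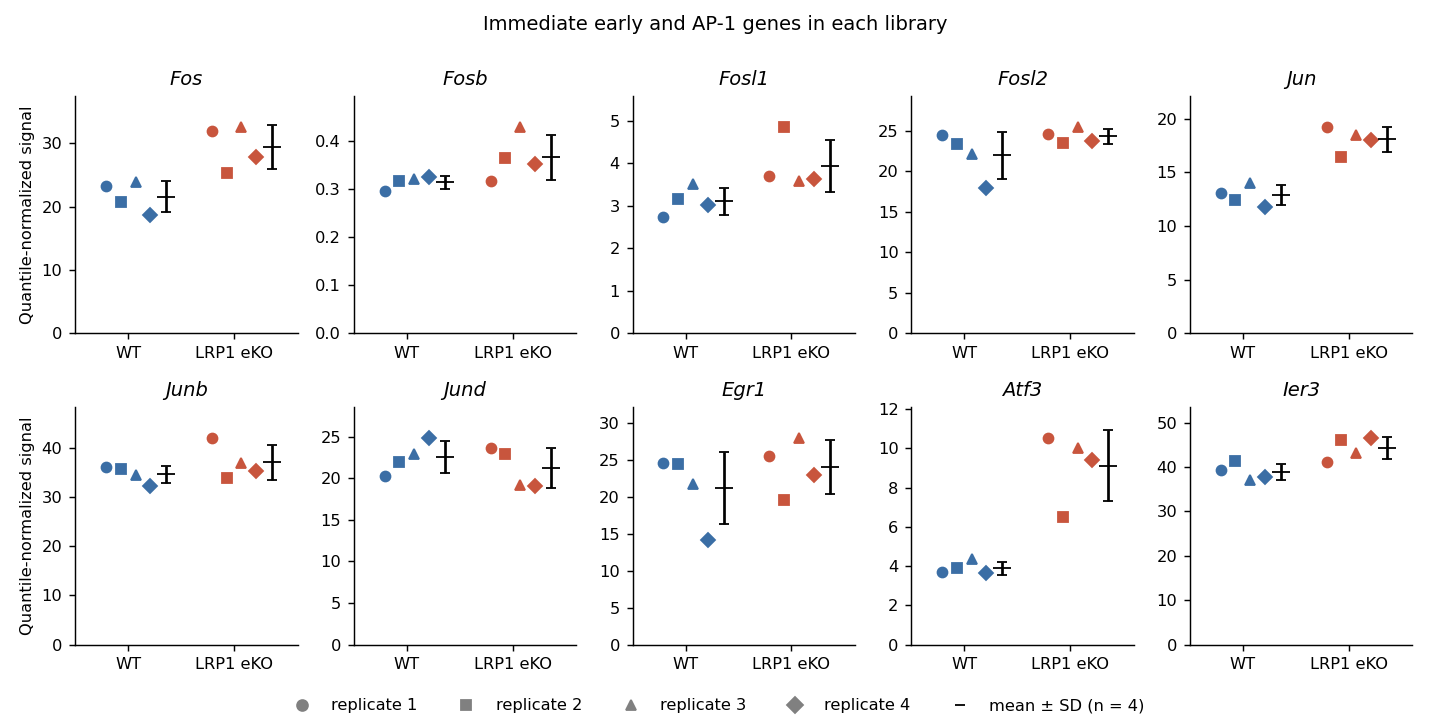
Quantile-normalized signal (vertical axes, starting at 0) of each of the 10 genes in the 4 WT (blue) and 4 LRP1 eKO (red) libraries, with a marker shape for each replicate number and the mean ± SD in black. Atf3, Fos, Fosl1 and Jun show no overlap of the genotypes, and the others do.

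Atf3 encodes a stress-induced bZIP factor of the ATF family that can pair with Jun proteins. It lies on chromosome 1 of GRCm38 from 191170296 to 191218039 in the GENCODE annotation, which begins upstream of the RefSeq start used above, so the printed bases lie inside the GENCODE gene. Its signal was 3.68, 3.88, 4.37 and 3.64 in WT replicates 1 to 4 and 10.5, 6.52, 10.04 and 9.39 in LRP1 eKO replicates 1 to 4. LRP1 eKO replicate 2 was the lowest of its group, yet lay above the highest WT library. The mean went from 3.89 ± 0.337 to 9.12 ± 1.80 (SD, n = 4 each). Atf3 rose by 1.03 on the log2 scale (95% interval 0.75 to 1.31, limma adjusted p = 0.00020), with rank 119 from the top among the genes tested. In an exact two-sided permutation test p was 0.029, the smallest that 4 libraries against 4 allow. The adjusted p was at most 0.0013 in 18 alternatives of the processing. The log2 fold change fell below 1 without LRP1 eKO replicate 1 or 3, with 0.96 as the lowest value, and with a pseudocount of 5 it was 0.66. The ratio of the mean signals was 2.34.

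Fos encodes the founding Fos protein, whose transcript is present only briefly after a stimulus in most cells. The gene lies on chromosome 12 from 85473890 to 85477273. Its signal was 23.2, 20.7, 23.9 and 18.6 in WT replicates 1 to 4 and 32.0, 25.3, 32.7 and 27.8 in LRP1 eKO replicates 1 to 4. WT replicate 4 and LRP1 eKO replicate 2 were the lowest of their groups, and the groups did not overlap. Fos rose by 0.43 on the log2 scale (95% interval 0.21 to 0.65, limma adjusted p = 0.0066), from a mean of 21.6 ± 2.40 to 29.5 ± 3.49 (SD, n = 4 each). The adjusted p was at most 0.021 in the 18 alternatives. Without WT replicate 4 and LRP1 eKO replicate 2 together, an alternative chosen after seeing the data, it was 0.43 as well (limma adjusted p = 0.0018).

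The remaining Fos proteins are Fosb, Fosl1 (Fra-1) and Fosl2 (Fra-2), of which Fosl1 and Fosl2 lack the strong activation domain of Fos. For Fosl1, WT replicates 1 to 4 gave 2.73, 3.16, 3.51 and 3.03, and the LRP1 eKO ones gave 3.69, 4.87, 3.58 and 3.64. The groups did not overlap, and WT replicate 3 and LRP1 eKO replicate 3 were nearest to each other. Fosl1 rose by 0.26 (95% interval 0.054 to 0.47, limma adjusted p = 0.047). It passed the threshold in 7 of 18 alternatives, with limma adjusted p-values from 0.040 to 0.12, and with 1 library left out it passed only without WT replicate 3. Exons of Fosl1 overlap those of Ccdc85b on the opposite strand, which was lower in LRP1 eKO libraries (log2 fold change -0.37, limma adjusted p = 0.016), and the sources do not say whether counting used the strand.

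Fosl2 did not pass the threshold (log2 fold change 0.15, 95% interval -0.044 to 0.34, limma adjusted p = 0.19). Its signal lay between 22.1 and 24.5 in WT replicates 1 to 3, at 17.9 in WT replicate 4 and between 23.4 and 25.5 in LRP1 eKO libraries. Without WT replicate 4 the difference was 0.058. Fosb was near the floor of the table, with signals from 0.296 to 0.326 in WT and from 0.317 to 0.431 in LRP1 eKO libraries. Fitted without the filter, its log2 fold change was 0.055 (limma adjusted p = 0.17), and the pseudocount is larger than these signals.

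Jun encodes the main activating Jun protein, and its own promoter is a classical AP-1 target. It lies on chromosome 4 from 95049034 to 95052222 as a gene of 1 exon. Its signal was 13.1, 12.5, 14.0 and 11.8 in WT replicates 1 to 4 and 19.3, 16.5, 18.5 and 18.04 in LRP1 eKO replicates 1 to 4. The groups were further apart relative to their spread than those of Fos, and their coefficients of variation were 7.27% (WT) and 6.54% (LRP1 eKO). Jun rose from a mean of 12.8 ± 0.934 to 18.1 ± 1.18 (SD, n = 4 each), by 0.46 on the log2 scale (95% interval 0.32 to 0.61, limma adjusted p = 0.00052). With 1 library left out it stayed between 0.43 and 0.50, and the limma adjusted p was at most 0.0027. Junos, an antisense gene, overlaps the exon of Jun, and their reads cannot be told apart without strand.

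Junb and Jund encode the other Jun proteins, which in many settings restrain growth where Jun promotes it. For Junb, WT replicates 1 to 4 gave 36.0, 35.7, 34.5 and 32.2, and the LRP1 eKO ones gave 42.0, 33.8, 36.9 and 35.3. These overlapped, and the log2 fold change was 0.091 (95% interval -0.063 to 0.24, limma adjusted p = 0.31). Its exon overlaps exons of Prdx2 on the opposite strand, which fell by 0.18 on the log2 scale (limma adjusted p = 0.040). Jund, which is expressed more constantly than the other members in most tissues, was the member with a lower mean in LRP1 eKO libraries. Its signal was 20.3, 21.9, 22.9 and 24.9 in WT replicates 1 to 4 and 23.6, 23.0, 19.2 and 19.1 in LRP1 eKO replicates 1 to 4. The groups overlapped, and the log2 fold change was -0.083 (95% interval -0.27 to 0.11, limma adjusted p = 0.46). The antisense gene Gm11175 overlaps the exon of Jund.

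**Figure D2:**
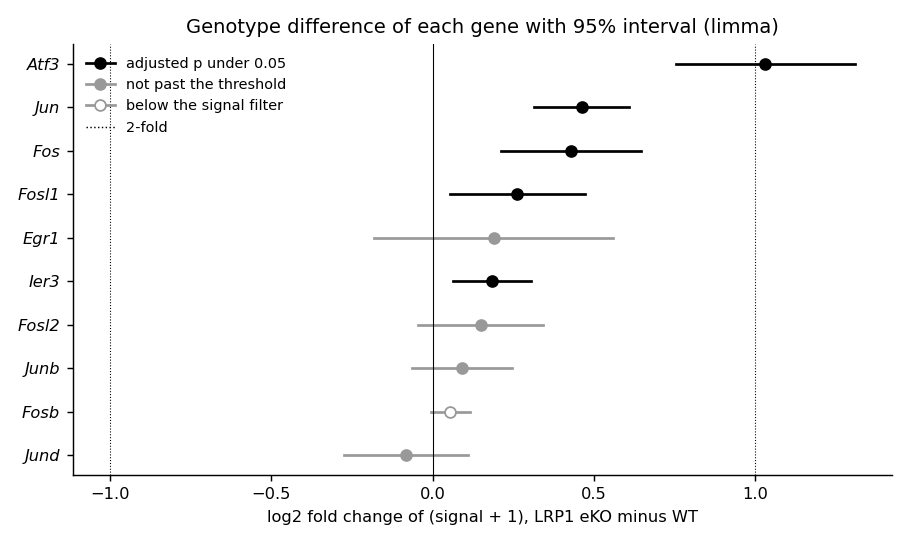
Log2 fold change of (signal + 1), LRP1 eKO minus WT (horizontal axis), for each of the 10 genes with its 95% interval from limma. Black marks the 5 genes at an adjusted p below 0.05, an open circle marks Fosb, which was below the filter, and the dotted lines mark a 2-fold change, which lies within the interval of Atf3.

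Whether family members differed from each other in their response was tested with the ratio of signals within each library. A factor common to all genes of a library does not alter this ratio, but quantile normalization is not such a factor and can alter it. This test was chosen after the values were seen, so it does not stand apart from the results of the single genes above. It covered 6 pairs, which share genes and are not separate tests. From WT to LRP1 eKO, the Jun/Jund ratio went from 0.575 ± 0.0738 to 0.859 ± 0.116 and the Jun/Junb ratio from 0.371 ± 0.0243 to 0.489 ± 0.0229 (SD, n = 4 each). The Fos/Fosl2 ratio went from 0.990 ± 0.0892 to 1.21 ± 0.102. For these 3 pairs the groups did not overlap, with an exact two-sided permutation p of 0.029 and of 0.057 after Benjamini-Hochberg adjustment over the 6 pairs. The adjusted value misses the threshold, and 0.029 is the smallest p that the design allows. The ratios Fos/Fosb, Fos/Fosl1 and Junb/Jund overlapped between the groups, with adjusted exact permutation p-values of 0.26, 0.60 and 0.31.

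Egr1 encodes a zinc finger factor that is induced with Fos through SRF but is not part of AP-1. Its signal was 24.6, 24.5, 21.7 and 14.2 in WT replicates 1 to 4 and 25.6, 19.6, 28.0 and 23.0 in LRP1 eKO replicates 1 to 4. WT replicate 4 stood below the other libraries, and the groups overlapped. The log2 fold change was 0.19 (95% interval -0.18 to 0.56, limma adjusted p = 0.38), and 0.016 without WT replicate 4. The interval is the widest of the 10 genes and includes the fold changes of Fos and Jun.

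Ier3 (also called IEX-1) encodes a small protein induced by NF-kB and growth factors that affects cell survival. Its signal was 39.3, 41.3, 37.1 and 37.8 in WT replicates 1 to 4 and 41.2, 46.2, 43.2 and 46.6 in LRP1 eKO replicates 1 to 4. In 15 of the 16 pairs of 1 library of each genotype, the LRP1 eKO library was higher. Ier3 rose by 0.18 (95% interval 0.062 to 0.30, limma adjusted p = 0.023), from 38.9 ± 1.85 to 44.3 ± 2.54 (SD, n = 4 each). The exact two-sided permutation p was 0.057. Its limma adjusted p was 0.061, 0.055 and 0.067 without WT replicate 3 or LRP1 eKO replicates 2 or 4, and 0.057 without WT replicate 4 and LRP1 eKO replicate 2 together.

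The groups of 4 of the 9 tested members did not overlap, with LRP1 eKO higher in each, against 20.0% of all genes tested in that direction and 42.6% in either. WT replicate 4 was the lowest WT library for 6 of the 10 members, and 38.6% of all genes tested were lowest there. LRP1 eKO replicate 2 was the lowest LRP1 eKO library for 6 of the 10 members, and 24.4% of all genes tested were lowest there. Fosl1 was the exception in the opposite direction, with its highest signal in LRP1 eKO replicate 2. Without both libraries, 3 members passed the threshold, Atf3 (log2 fold change 1.14), Jun (0.47) and Fos (0.43), with limma adjusted p-values of 7.3e-06, 0.00022 and 0.0018. Of all 11210 genes tested in that fit, 2281 were higher and 2624 lower at a limma adjusted p below 0.05.

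Genes of other cell types also differed between the genotypes, and the genes named for a count here outside the 2 with the highest signal were picked with their values in view. Of 14 macrophage and Kupffer cell genes, 13 were in the table and 8 were tested, and 1 of these rose (Csf1r, limma adjusted p = 0.030), with a median log2 fold change of 1.19. Their summed signal was 187, 204, 219 and 112 in WT replicates 1 to 4 and 723, 52.2, 660 and 388 in LRP1 eKO replicates 1 to 4, led by Lyz2 and Cd68. The Kupffer cell markers Clec4f and Timd4 were listed at 0 in every WT library and above 0 in at least 1 LRP1 eKO library, with a size not reported here. Of the 8 tested macrophage genes, 7 did not pass the threshold. LRP1 eKO replicate 2 had the lowest macrophage signal of the 8 libraries. In that library Atf3 (6.52), Fos (25.3) and Jun (16.5) were above their highest WT signals of 4.37, 23.9 and 14.0. Among the other 3 LRP1 eKO libraries, the macrophage signal was lowest in replicate 4, where Atf3, Fos and Jun were also lower than in replicates 1 and 3. Of the hepatocyte genes, 6 of 6 tested fell, Ahsg and Fgb with the highest signals, and their summed signal lay between 34.9 and 45.5 in LRP1 eKO against 95.1 to 141 in WT. Skeletal muscle genes fell in 3 of 3 tested genes, from a summed 27.8 to 47.1 down to 5.12 to 6.56, Myl1, Mylpf and Tnnt3. Of 8 tested pan-endothelial genes, 4 rose (Eng, Esam, Cdh5 and Flt1). The summed pan-endothelial signal was 86.7, 69.4, 81.7 and 74.3 in LRP1 eKO replicates 1 to 4, and each value was above the highest WT value of 54.7. These libraries had the same order for Atf3, and also for the macrophage, sinusoidal endothelial, and neutrophil and monocyte sums. In LRP1 eKO replicate 2 the sinusoidal endothelial sum was 8.38, within the WT range of 7.86 to 11.7. Stab1 and Fcgr2b led the sinusoidal endothelial genes without passing the threshold, and 1 of 4 tested genes rose (Oit3). Of 7 tested stellate cell and fibroblast genes, 2 fell (Dcn and Lum) and 5 did not pass the threshold. Of 10 neutrophil and monocyte genes 1 was tested and rose (S100a8), and of 10 erythroid genes 1 was tested and fell (Alas2). Of 10 lymphocyte genes, 0 passed the filter. The part of these cells in the differences of Atf3, Jun and Fos was not tested.

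**Figure D3:**
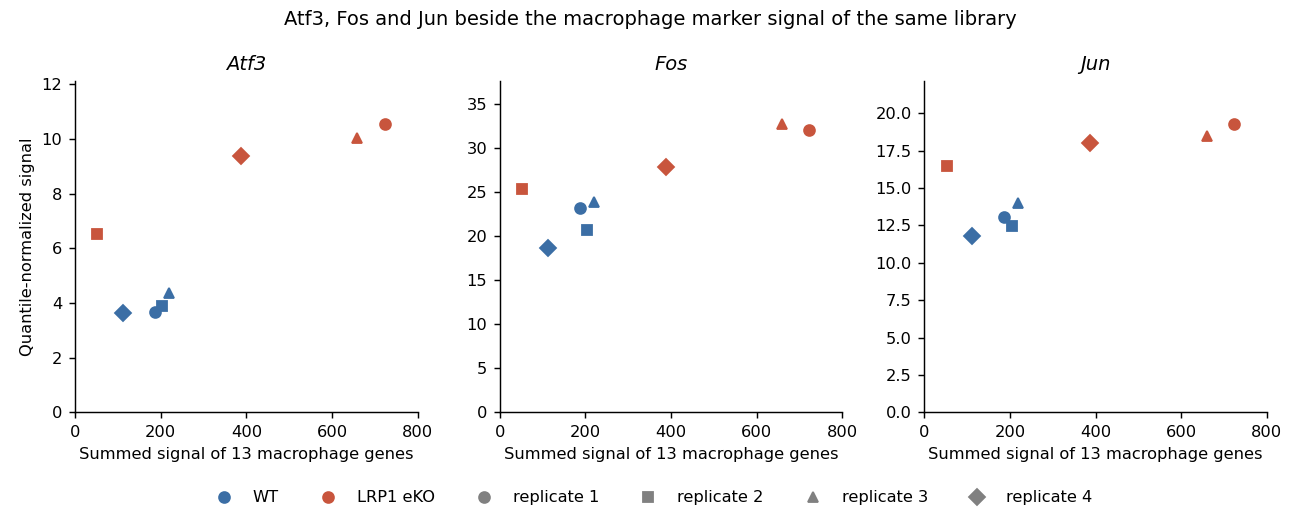
Quantile-normalized signal of Atf3, Fos and Jun (vertical axes, starting at 0) against the summed signal of 13 macrophage genes in the same library (horizontal axis), for 4 WT (blue) and 4 LRP1 eKO (red) libraries. LRP1 eKO replicate 2 (red square) has the lowest macrophage signal, 52.2, and lies above the 4 WT libraries in all 3 panels.

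The other genes of the response were described from lists of known immediate early genes, partners, upstream kinases, inhibitors and targets, beside the 19.0% and 22.2% of all genes tested that rose and fell. Of 31 tested immediate early genes outside the 10, 14 rose, 6 fell and 11 did not pass the threshold, with a median log2 fold change of 0.10. Gadd45g, a stress sensor of the growth arrest family, was the gene past the 2-fold threshold. Its mean signal was 20.5 ± 2.93 against 45.5 ± 4.85 (SD, n = 4 each), or 1.12 higher on the log2 scale (limma adjusted p = 2.8e-05). Genes named in the rest of this paragraph were picked with their values in view. The matricellular genes Ctgf and Cyr61, targets of SRF and YAP, rose by 0.78 and 0.70 on the log2 scale. Klf4, Myc and Klf6, which encode transcription factors, rose by 0.80, 0.61 and 0.60. Ptgs2, the inducible prostaglandin synthase, rose by 0.72. Egr2, a paralog of Egr1, rose by 0.33 (limma adjusted p = 0.0017). In the opposite direction, the 6 genes that fell were Id3, Ier5l, Trib1, Nr4a3, Btg2 and Gadd45a, by 0.79, 0.64, 0.38, 0.36, 0.29 and 0.27. Ier2 (log2 fold change -0.081, limma adjusted p = 0.31) and Nr4a1 (0.064, limma adjusted p = 0.75), both typical immediate early genes, did not pass the threshold. Gadd45b, which like Gadd45a is a paralog of Gadd45g, did not pass it either (log2 fold change -0.031, limma adjusted p = 0.90).

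Among the other bZIP factors, for which 15 rows were tested, 3 rose (Mafk, Mafg and Batf), 2 fell (Maf and Crem) and 10 did not pass the threshold. Maf, a large Maf protein with a role in sinusoidal ECs, fell from 43.9 ± 3.52 to 30.8 ± 1.72 (limma adjusted p = 0.00036). Mafk, a small Maf protein that lacks an activation domain, rose from 12.97 ± 0.548 to 17.5 ± 1.54 (SD, n = 4 each, limma adjusted p = 0.0010). Of 24 tested genes of the MAP kinase cascade, 6 rose, 3 fell (Map3k5 and Mapk12 among them) and 15 did not pass the threshold, with a median log2 fold change of 0.047. Map2k1, the kinase of ERK, rose by 0.33, and Map3k5, the stress kinase ASK1, fell by 0.68 on the log2 scale. Of SRF and its partners, 2 of 6 tested genes rose, the myocardin-related coactivators Mkl2 (0.33) and Mkl1 (0.23).

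Feedback inhibitors moved in both directions, with 3 higher (Dusp1, Dusp8 and Dusp10), 5 lower (Spry2, Spry4, Dusp5, Zfp36l1 and Zfp36l2) and 8 not past the threshold among 16 tested genes. Dusp1, a phosphatase that inactivates MAP kinases, rose from 15.6 ± 1.89 to 26.9 ± 1.26 (SD, n = 4 each, limma adjusted p = 9.6e-05). Spry4, an inhibitor of receptor tyrosine kinase signaling, fell from 24.6 ± 2.91 to 15.1 ± 1.74 (SD, n = 4 each, limma adjusted p = 0.00063). Of 25 tested genes that are textbook AP-1 targets, 15 rose, 5 fell (Edn1, Plau, Vcam1, Mt1 and Mt2) and 5 did not pass the threshold, with a median of 0.31. Among those past the 2-fold threshold were Cd44, a hyaluronan receptor, and F3 (tissue factor), with log2 fold changes of 1.28 and 1.14. These targets have many other regulators. Heat shock genes, which are induced with immediate early genes when tissue is dissociated, showed 2 higher (Hspa5 and Hspd1), 3 lower (Hspa1a, Hspa1b and Hspb1) and 10 not past the threshold of 15 tested genes. The inducible Hspa1b, whose reads can be shared with its near-identical copy Hspa1a, fell from 6.67 ± 0.388 to 4.57 ± 0.197, and Hspa5, an ER chaperone, rose from 374 ± 15.6 to 457 ± 21.0 (SD, n = 4 each).

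**Figure D4:**
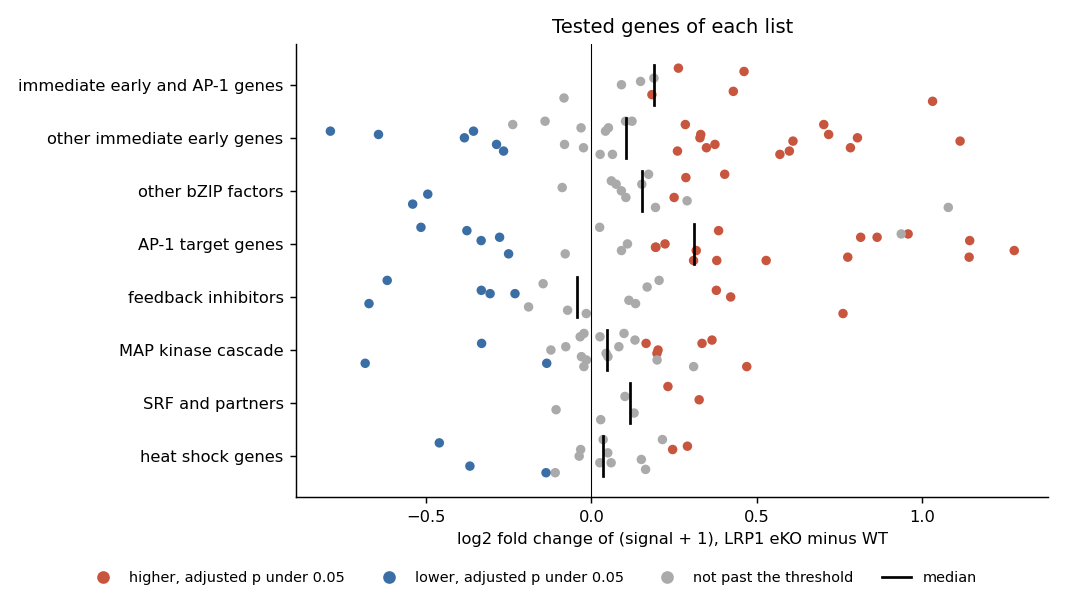
Log2 fold change of (signal + 1), LRP1 eKO minus WT (horizontal axis), of each tested gene in 8 lists, with red and blue for genes higher and lower at a limma adjusted p below 0.05, grey for the others and a black line at the median. The 9 tested immediate early and AP-1 genes lie between -0.083 and 1.03, and AP-1 target genes have the highest median, 0.31.

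The genes with the most similar pattern were found by the root mean square difference of centred log2 signals over the 8 libraries. For Atf3 they were Slfn8 (0.094) and Emilin2 (0.11), for Jun Ctsl (0.036) and Emp1 (0.045), and for Fos Hgf (0.063) and Lipa (0.064). Ankrd42 and Plekhf2 were nearest to Fosl1 (0.047 and 0.057), and Cyb5d2 and Max to Ier3 (0.033 and 0.034). Neither Ankrd42 nor Plekhf2 passed the threshold between the genotypes (limma adjusted p = 0.089 and 0.12). The measure is not scaled, so it tends to be smaller for genes that vary little, and its size was not compared between members.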

How the data were processed

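mRNA-seq values of liver ECs from 8 libraries, 4 per genotype, were grouped by the sample labels. The authors deposited 1 quantile-normalized signal per gene and library, and how it was made is not given in the sources used here. The submitters' processing notes name TopHat2, Cufflinks and mm10, whereas the methods name STAR, featureCounts and edgeR. Cufflinks usually reports FPKM, which is scaled by gene length, but no source used here states that the table holds it. Signals summed to between 484445 and 485947 per library, so that depth is unknown and precision rests on the spread between libraries. From these, log2(signal + 1) was modelled on genotype alone in limma 3.58.1 (R 4.3.3), using its mean-variance trend, for genes that reached a signal of 1 in 4 libraries or more. The thresholds were a Benjamini-Hochberg adjusted p below 0.05 and 2-fold, as in the methods. On simulated data, with 200 of 11391 genes shifted by 0.5 (log2), 171 were recovered and 6 unshifted genes were called. The shifted genes were drawn from those with higher signals, and the noise was normal and independent between libraries. The recovery therefore does not cover weakly expressed genes or outlying libraries, and far fewer genes were shifted than were called in the data.

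The members and lists were chosen with earlier results of these data known. Apart from the 10 members, named genes were those of each list past both thresholds (at most 3 per direction) or else the 2 with the smallest adjusted p, the 2 cell type markers of each list with the highest mean, and the 2 genes nearest to each called member. Immediate early genes outside the 10 (except Gadd45g), Pecam1, Cdh5, Csf1r, Clec4f, Timd4, the genes given in brackets for counts and the genes overlapping members were chosen after their values were seen. Results of some listed genes are not reported here. Gene positions came from GENCODE M21. Alternatives were pseudocounts of 0.1 and 5, other filters, limma without trend, robust or with array weights, centring, a replicate block, other thresholds, a ratio of means, and leaving out each library.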

Additional observations from a re-analysis of the deposited data

Results flagged for a closer look

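Dixon's test was applied to each genotype for the 10 genes and Lrp1, and 1 of 22 groups held a library that stood apart, a number that chance alone would give (1.10). For Fosl1 in LRP1 eKO libraries, the gap of the highest library, replicate 2, to the nearest was 0.913 of the range of the group. Its signal there was 4.87, and without this library the log2 fold change of Fosl1 was 0.18 (limma adjusted p = 0.089).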

How the results depend on the processing

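Atf3, Jun and Fos kept an adjusted p below 0.05 in 18 of 18 alternatives each, and no member changed direction. Fosl1 lost its call with no filter and with a minimum mean signal of 5, below which it was fitted without a filter (log2 fold change 0.26 in both), with the replicate block (0.26, adjusted p = 0.055) and without both WT replicate 4 and LRP1 eKO replicate 2 (0.17), where Ier3 (0.15) lost it too. With 1 library left out, the log2 fold change was 0.18 to 0.31 for Fosl1 and 0.16 to 0.22 for Ier3, and from 3 to 4 members rose, with 0 to 1 past 2-fold. Without both libraries 3 members rose. Of all genes tested, 1670 to 2200 rose at a limma adjusted p below 0.05 with 1 library left out, and 2281 of 11210 without both. The ratio of means, as log2, was 0.22 for Fosb. With a pseudocount of 5, 0 members and 40 higher and 26 lower genes passed both thresholds, and with 0.1 149 and 166 genes. With a minimum mean of 5, 63 genes were higher. With an adjusted p alone, 5 members and 2164 higher and 2526 lower genes passed, and with 1.5-fold 336 and 388 genes. With 1 library left out, 81 to 163 genes were higher and 75 to 105 lower, and 152 were higher without both libraries, against 99 and 90. The causes were not tested. The replicate block changed no other member's call. Replicate numbers share no stated batch, deviations of same-numbered libraries correlated between -0.13 and 0.18, and 0 of 8 libraries correlated best with their own number. Depth is unknown, which limits what can be said of the low signals of Fosb.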
